A study of Mus musculus with 12 samples.

Results

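The TCRα clonotypes described here are those that used a joining segment at the 5′ end of the mouse Tcra joining cluster, the TRAJ segments numbered 48 and above, in the correct reading frame. They were chosen by the number of the TRAJ segment and the reading frame alone. In 12 libraries they amounted to 7602 UMIs of 199248 (3.82%) and 1297 clonotypes of 22578, and 8 of the 44 detected TRAJ segments had such clonotypes, namely TRAJ58, TRAJ57, TRAJ56, TRAJ53, TRAJ52, TRAJ50, TRAJ49 and TRAJ48. A UMI is a molecular tag that stands for 1 Tcra mRNA molecule, and a clonotype is a combination of V segment (TRAV), CDR3 amino acid sequence and TRAJ segment.

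The libraries came from newly developed thymic Treg, sorted as CD4+CD8-Thy1.1+GFP+ thymocytes, of 12 individual mice aged 3 weeks on the B6 background: 4 wt, 4 lacking Il2 (Il2°, Il2null) and 4 lacking Il15 (Il15°, Il15null). All mice, wt included, carried the Rag2-Gfp and Foxp3-Thy1a reporters, the Kaa Tcrb transgene, and 1 null allele of Tcra. The study asked how far IL-2 and IL-15 shape the repertoire of Treg developing in the thymus. As a model the mice are limited by the single transgenic TCRβ chain, which all TCRα chains had to pair with, and the sorted identity cannot be checked against marker genes since the tables hold TCRα sequences only. A cell can give several UMIs, so that more cells with a clonotype and more mRNA per cell cannot be told apart.

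As background, a Tcra gene is assembled in CD4+CD8+ thymocytes by joining a TRAV to a TRAJ segment. The first joins typically use TRAV segments near the joining cluster together with TRAJ segments at its 5′ end, and each further join on the same allele deletes the previous one and moves outward, to more distant TRAV and more 3′ TRAJ. Rearrangement ends when the cell is positively selected or dies, so a 5′ TRAJ in a selected cell can stand for an early join that was kept. The CDR3 loop built at the junction, which contacts the peptide and the MHC molecule, takes most of its 3′ part from the TRAJ segment.

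The germline sequences of the 8 segments are shown because they set most of the CDR3 of their clonotypes. They were read from the GENCODE annotation on GRCm38 (mm10), where all 8 are annotated joining segments on the plus strand of chromosome 14. The annotated TRAJ57 starts at 54158505 and has 65 bases, of which the 63 from 54158507 on are shown. Capitals mark the bases that encode the CDR3, up to its closing phenylalanine, and lower case marks framework 4.
TRAJ58, chr14:54157280-54157342: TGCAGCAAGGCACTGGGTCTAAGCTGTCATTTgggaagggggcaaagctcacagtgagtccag
TRAJ57, chr14:54158507-54158569: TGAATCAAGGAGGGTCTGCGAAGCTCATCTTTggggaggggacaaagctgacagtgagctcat
TRAJ56, chr14:54159263-54159325: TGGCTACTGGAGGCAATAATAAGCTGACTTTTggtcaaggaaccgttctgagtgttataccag
TRAJ53, chr14:54162644-54162709: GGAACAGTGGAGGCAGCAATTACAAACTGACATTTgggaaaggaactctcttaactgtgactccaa
TRAJ52, chr14:54165316-54165381: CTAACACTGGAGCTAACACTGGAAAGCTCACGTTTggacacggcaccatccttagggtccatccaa
TRAJ50, chr14:54167590-54167652: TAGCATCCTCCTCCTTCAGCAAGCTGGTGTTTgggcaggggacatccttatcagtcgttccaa
TRAJ49, chr14:54168686-54168747: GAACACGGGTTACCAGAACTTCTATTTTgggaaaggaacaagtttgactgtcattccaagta
TRAJ48, chr14:54169808-54169868: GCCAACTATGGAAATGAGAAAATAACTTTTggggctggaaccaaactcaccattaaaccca
The CDR3 part was longest in TRAJ53 and TRAJ52, with 35 bases, and shortest in TRAJ49, with 28 bases. From the start of TRAJ58 to the end of TRAJ48 the segments covered 12.6 kb of the 63.8 kb between TRAJ61 and TRAJ1. Of the 14 annotated segments numbered 48 or above, 5 are pseudogenes.

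The most abundant clonotype of each segment shows how its members were built. In the following CDR3 nucleotide sequences, from the deposited tables, lower case marks the bases that match the germline TRAJ and capitals mark those that do not, which come from the TRAV segment or were added at the junction.
TRAV4D-4 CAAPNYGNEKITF TRAJ48: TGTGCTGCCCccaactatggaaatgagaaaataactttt
TRAV4D-4 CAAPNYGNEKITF TRAJ48: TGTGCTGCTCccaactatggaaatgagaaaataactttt
TRAV4D-3 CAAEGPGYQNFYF TRAJ49: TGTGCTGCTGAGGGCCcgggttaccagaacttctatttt
TRAV7-6 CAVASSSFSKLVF TRAJ50: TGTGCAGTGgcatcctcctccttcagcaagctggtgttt
TRAV17 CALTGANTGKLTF TRAJ52: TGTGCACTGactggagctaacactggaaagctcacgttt
TRAV16D/DV11 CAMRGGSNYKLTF TRAJ53: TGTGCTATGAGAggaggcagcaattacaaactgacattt
TRAV4D-4 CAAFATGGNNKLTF TRAJ56: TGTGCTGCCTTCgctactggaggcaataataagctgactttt
TRAV4D-4 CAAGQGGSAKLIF TRAJ57: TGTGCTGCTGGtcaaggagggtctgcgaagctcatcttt
TRAV13D-1 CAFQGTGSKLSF TRAJ58: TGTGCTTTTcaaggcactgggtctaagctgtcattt
The first 2 lines encode the same CDR3 through different alanine codons. They had 242 and 230 UMIs, and each was found in all 12 libraries. TRAV4D-4 lies 1164 kb upstream of TRAJ61, the first segment of the joining cluster, TRAV4D-3 lies 1255 kb upstream and TRAV17 lies 348 kb upstream. By the deposited V names the leading clonotypes thus joined 5′ TRAJ segments to TRAV segments at very different distances. Since TRAV copies are near identical, the TRAV4D distances depend on the assignment between copies, which was taken as given.

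The total use of the 5′ TRAJ segments did not pass the test for a difference between any genotypes, and the differences in mean were within the spread between mice. In wt, 1006 of 25980 UMIs (3.87%), 1094 of 23915 (4.57%), 598 of 15977 (3.74%) and 675 of 17330 (3.89%) were in-frame 5′ TRAJ UMIs. In Il2° they were 621 of 13274 (4.68%), 638 of 18652 (3.42%), 580 of 15379 (3.77%) and 246 of 7625 (3.23%). In Il15° they were 509 of 18018 (2.82%), 523 of 13758 (3.80%), 416 of 10751 (3.87%) and 696 of 18589 (3.74%). Replicate 1 of Il15° was the lowest of the 12 and replicate 1 of Il2° the highest, and the ranges of the 3 genotypes overlapped. The 95% Wilson interval was 3.64 to 4.11% in wt replicate 1 and 2.85 to 3.65% in Il2° replicate 4, the deepest and the shallowest library, and it covers counting error only. The mean share was 4.02% ± 0.37 in wt, 3.77% ± 0.64 in Il2° mice and 3.56% ± 0.49 in Il15° mice (SD, n = 4 each), and exact 2-sided Mann-Whitney tests gave p = 0.486 for Il2° against wt, 0.2 for Il15° against wt and 1 for Il15° against Il2° (adjusted 0.729, 0.6 and 1). With 4 mice against 4 the smallest p of this test is 0.0286.

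TRAJ48 and TRAJ49, the most 3′ of the 8 segments, had 1353 and 1252 UMIs over all libraries, and TRAJ53 had 471. The order differed between genotypes: by mean share TRAJ49 led in wt and TRAJ48 in Il2° and Il15°, with TRAJ57, TRAJ50 and TRAJ52 also above TRAJ49 in Il2°, and TRAJ53 was lowest in all 3. TRAJ57 had 1199 UMIs, TRAJ50 1061, TRAJ52 921, TRAJ56 707 and TRAJ58 638. At the edge of the rule, TRAJ48 (151 clonotypes) was the segment just inside, and TRAJ47 and TRAJ45 were the nearest detected segments outside. By the frame marks of the deposited CDR3, TRAJ47 had 4 in-frame UMIs and 1797 out-of-frame UMIs (99.8% of its UMIs), whereas TRAJ45 had 524 in-frame UMIs (95 clonotypes) and 73 out-of-frame UMIs. TRAJ47 is annotated as a joining segment and not as a pseudogene, and why its rows were marked out of frame was not tested.

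**Figure D1:**
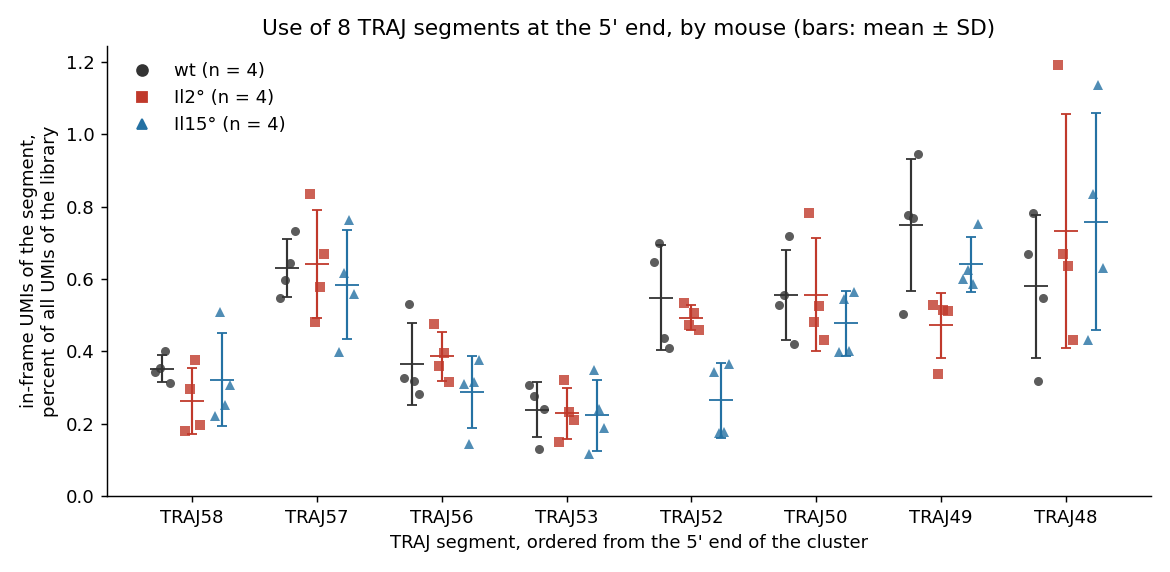
Share of all UMIs of a library (%, y axis) for each 5′ TRAJ segment (x axis, from the most 5′ to the most 3′) in wt, Il2° and Il15°. Points are mice and bars are means with SD (n = 4 each), and the 4 Il15° mice lie below all wt and all Il2° mice for TRAJ52.

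TRAJ52 was the segment that edgeR called as lower in Il15° mice, with calls that depended on single mice. Its share was 0.647, 0.698, 0.438 and 0.410% of UMIs in wt replicates 1 to 4 and 0.535, 0.472, 0.507 and 0.459% in Il2°. In Il15° it was 0.344, 0.174, 0.177 and 0.366%, so that every Il15° mouse lay below every mouse of the other genotypes. The means were 0.548% ± 0.146, 0.493% ± 0.034 and 0.265% ± 0.104 (SD, n = 4 each). In edgeR's quasi-likelihood test over 40 TRAJ segments, TRAJ52 was lower in Il15° than in wt by a log2 fold change of -0.96 ± 0.27 (SE, adjusted p = 0.0147) and lower than in Il2° by -0.83 ± 0.28 (adjusted p = 0.0419). It was the only member called in these comparisons, 1 of 8 in each, beside 2 of 40 segments (5%) called for Il15° against wt and 4 of 40 (10%) for Il15° against Il2°. Both calls depended on single mice: that against wt was lost without wt replicate 1 (adjusted p = 0.0620) or 2 (0.133) or without Il15° replicate 2 (0.128) or 3 (0.142), and that against Il2° was kept only without Il15° replicate 1 (0.0183) among the 8 ways to leave out a mouse of these genotypes. With the replicate number as a block the adjusted p was 0.0477 against wt and 0.0698 against Il2°. By exact Mann-Whitney tests over the same 40 segments no member passed, the smallest adjusted p being 0.381 against wt and 0.163 against Il2°.

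TRAJ49 had the smallest p of the 8 segments for Il2° against wt, without passing the adjusted threshold. Its share was 0.504, 0.778, 0.770 and 0.946% in wt and 0.527, 0.338, 0.514 and 0.511% in Il2°. In Il15° it was 0.599, 0.625, 0.586 and 0.753%. The Il2° mice were below 3 of the 4 wt mice and below all Il15° mice, while wt replicate 1 lay among the Il2° values. The means were 0.750% ± 0.183 in wt, 0.473% ± 0.090 in Il2° mice and 0.641% ± 0.077 in Il15° mice (SD, n = 4 each). In edgeR's quasi-likelihood test the log2 fold change of Il2° against wt was -0.64 ± 0.23 (SE, adjusted p = 0.0522). None of the 40 segments (0%) was called in this comparison, 7 (17.5%) had an unadjusted p of at most 0.05, TRAJ49 being the only one of the 8 members among them, and DESeq2 called 2 segments and limma 1. The adjusted p was 0.0480 without TMM normalization and with 1 mouse left out it ran from 0.0208 (without wt replicate 1) to 0.355 (without wt replicate 4). It was below 0.05 in 3 of 8 leave-outs, those of wt replicate 1 and of Il2° replicates 1 and 4, and it was 0.279 without Il2° replicate 2. For Il15° the log2 fold changes were -0.16 ± 0.22 against wt (adjusted p = 0.735) and 0.48 ± 0.23 against Il2° (adjusted p = 0.248).

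The differences of TRAJ56 between genotypes were within the spread between mice. Its share was 0.327, 0.531, 0.319 and 0.283% in wt and 0.475, 0.359, 0.397 and 0.315% in Il2°. In Il15° it was 0.311, 0.145, 0.316 and 0.377%. The genotypes overlapped, with the highest value in wt replicate 2 and the lowest in Il15° replicate 2. The means were 0.365% ± 0.112, 0.386% ± 0.068 and 0.287% ± 0.099 (SD, n = 4 each), and the log2 fold changes in edgeR were 0.12 ± 0.30 for Il2° against wt (adjusted p = 0.885), -0.28 ± 0.30 for Il15° against wt (adjusted p = 0.705) and -0.40 ± 0.31 for Il15° against Il2° (adjusted p = 0.466).

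The other 5 segments overlapped between all genotypes. TRAJ58 had mean shares of 0.353% ± 0.037 in wt, 0.262% ± 0.092 in Il2° mice and 0.322% ± 0.129 in Il15° mice (SD, n = 4 each), and TRAJ57 had 0.631% ± 0.079, 0.642% ± 0.150 and 0.585% ± 0.150. TRAJ53, the least used, had 0.239% ± 0.077, 0.229% ± 0.071 and 0.224% ± 0.098. TRAJ50 had 0.556% ± 0.124, 0.556% ± 0.156 and 0.477% ± 0.090. TRAJ48 had the widest range between mice, from 0.319% in wt replicate 3 to 1.19% in Il2° replicate 1, with means of 0.580% ± 0.198, 0.733% ± 0.323 and 0.758% ± 0.300. Over the 8 members the median log2 fold change was 0.02 for Il2° against wt, -0.13 for Il15° against wt and -0.11 for Il15° against Il2°, beside 0.05, -0.01 and -0.03 over all 40 segments. The groups did not overlap for 0 members in Il2° against wt, beside 10% of all segments, for 1 member (TRAJ52) in Il15° against wt, beside 7.5%, and for 2 members (TRAJ52 and TRAJ49) in Il15° against Il2°, beside 17.5%.

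With TMM and all libraries, no TRAV family joined to TRAJ52 passed the adjusted threshold in edgeR between genotypes, so the values of the partners are a description. Some 5′ TRAJ pairs passed in other settings, as given under the dependence on the processing. TRAV17, 1 of the TRAV segments nearest to the joining cluster, had 252 of the 921 TRAJ52 UMIs, with mean shares of 0.115% ± 0.057 of a library in wt, 0.146% ± 0.044 in Il2° mice and 0.102% ± 0.057 in Il15° mice (SD, n = 4 each). TRAJ52 joined to any other family had 0.433% ± 0.091, 0.347% ± 0.066 and 0.164% ± 0.093. Whether the TRAV17 joins differed from the other TRAJ52 joins in their change was not tested. TRAV4 joined to TRAJ52 had mean shares of 0.091% ± 0.043 in wt, 0.109% ± 0.041 in Il2° mice and 0.081% ± 0.043 in Il15° mice, and TRAV12 had 0.116% ± 0.016, 0.080% ± 0.061 and 0.063% ± 0.033. In UMIs, TRAV13 had 61, 20 and 1, TRAV7 54, 10 and 3, TRAV6 27, 20 and 4, and TRAV9 23, 12 and 0, out of 83202 UMIs in wt, 54930 in Il2° mice and 61116 in Il15° mice.

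**Figure D2:**
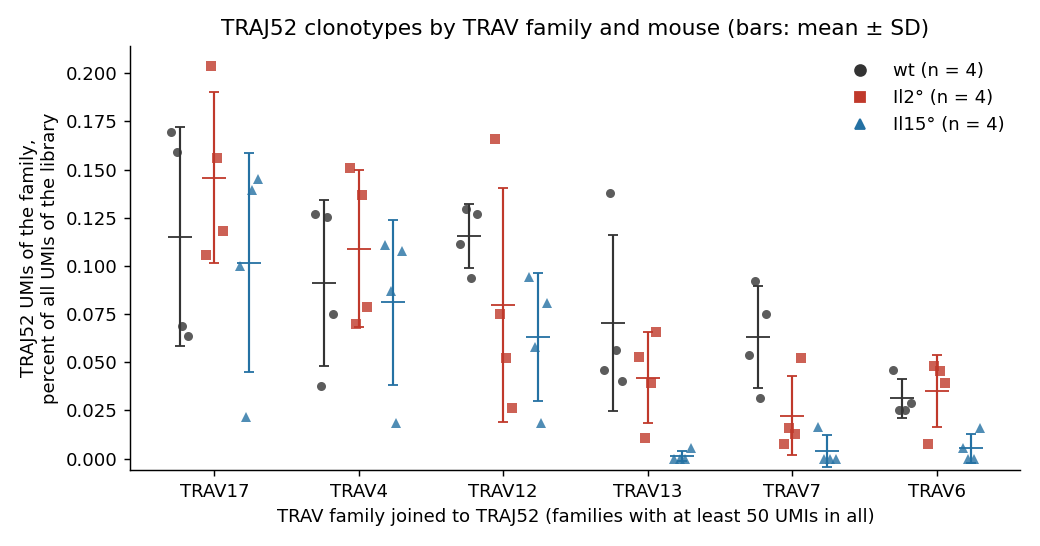
Share of all UMIs of a library (%, y axis) for TRAJ52 joined to each TRAV family (x axis) in wt, Il2° and Il15°, with points for mice and bars for means (n = 4 each). TRAV17 and TRAV4 joins had overlapping values in the 3 genotypes, and TRAV13 joins were at 0 in 3 of the 4 Il15° mice.

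The TRAV13 joins of TRAJ52 had the smallest p of all 5′ TRAJ pairs in both comparisons with Il15°. They had 12, 33, 9 and 7 UMIs in wt, 7, 2, 6 and 5 in Il2° mice and 0, 0, 0 and 1 in Il15° mice, so that the Il15° mice did not overlap with either genotype, as was the case for 5.85% of all pairs against wt and 9.06% against Il2°. In the pooled libraries the ratio of shares was 44.8 for wt over Il15° (exact 95% interval 7.75 to 1798) and 22.3 for Il2° over Il15° (3.56 to 922), which covers counting error only. The pair passed the filter on low counts, 5 UMIs in at least 4 libraries, through wt and Il2° mice alone, so the values against Il15° are a description. Without the filter the adjusted p in edgeR was 0.0835 against wt and 0.0842 against Il2°. Replicate 2 held 33 of the 61 wt UMIs, and without it the ratio of wt over Il15° was 28.9 (exact 95% interval 4.77 to 1180). The TRAV4 joins of TRAJ49 had the smallest p for Il2° against wt. They had 52, 89, 69 and 65 UMIs in wt, 17, 21, 28 and 12 in Il2° mice and 36, 22, 14 and 47 in Il15° mice, and their mean shares were 0.345% ± 0.1003, 0.145% ± 0.031 and 0.186% ± 0.053 (SD, n = 4 each). The wt and Il2° mice did not overlap, as in 7.31% of all pairs, and the log2 fold change was -1.25 ± 0.39 (SE, adjusted p = 0.0822 in edgeR). With 1 mouse left out the adjusted p ran from 0.0441 (without wt replicate 1, which alone passed) to 0.390 (without Il2° replicate 2). Of the 118 pairs of the 5′ TRAJ segments 47 passed the filter on low counts, and edgeR's quasi-likelihood test over 342 pairs of TRAV family and TRAJ segment called none in any comparison, beside 4 of 342 pairs (1.17%) for Il2° against wt, 0 (0%) for Il15° against wt and 13 (3.8%) for Il15° against Il2°. At an unadjusted p of at most 0.05 the members had 1, 3 and 4 pairs, beside 12%, 9.06% and 15.8% of all pairs. DESeq2 called 1 of them in each comparison, which were these TRAV4 and TRAV13 joins. Since the TRAV13 pair passed the filter through wt and Il2° mice alone, its calls against Il15° are a description too.

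TRAV partners near the joining cluster were several times more frequent with 5′ TRAJ than with the other TRAJ segments. The J-proximal families TRAV16 to TRAV21, counted without their duplicated D and N copies, made up 11.5, 10.4, 8.36 and 6.67% of the 5′ TRAJ UMIs in wt. In Il2° they made up 5.96, 16.1, 15.2 and 15.9%, and in Il15° 12.6, 10.9, 11.1 and 9.63%. In all 12 libraries this was above the share in the remaining in-frame UMIs, which ranged from 1.07 to 2.83%. The mean was 11.2% ± 3.35 against 1.98% ± 0.63 (SD, n = 12), and the within-library difference of 9.21 percentage points ± 3.12 had p = 0.000488 (exact 2-sided sign-flip permutation test, adjusted 0.000814), the smallest value that 12 libraries can give. Within each genotype all 4 libraries had this direction, with differences of 7.36 ± 1.36 in wt, 11.02 ± 4.83 in Il2° mice and 9.23 ± 1.26 in Il15° mice, where the smallest p of 4 libraries is 0.125. Between genotypes, the test of this difference itself did not pass (exact Mann-Whitney p = 0.343 for Il2° against wt, 0.114 for Il15° against wt and 0.343 for Il15° against Il2°).

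The proximal share of the whole set came from few TRAV segments. TRAV17 (chr14:53806639-53807115 on GRCm38, plus strand) had 508 UMIs with 5′ TRAJ, 49.0% of all in-frame TRAV17 UMIs. Of these 252 were with TRAJ52, 88 with TRAJ53, 43 with TRAJ58, 40 with TRAJ57, 36 with TRAJ50, 31 with TRAJ56, 16 with TRAJ49 and 2 with TRAJ48. TRAV19 (chr14:53845234-53845827) had 177 UMIs with 5′ TRAJ, 33.1% of its in-frame UMIs, of which 99 were with TRAJ57. TRAV21/DV12 (chr14:53875984-53876752), the most J-proximal of them, had 125 UMIs (42.2%), of which 68 were with TRAJ57, and TRAV18 had 9 UMIs beside 3 with other TRAJ. TRAV16 was the exception, with 7 UMIs on 5′ TRAJ and 2629 on other segments.

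Along the joining cluster the share of TRAV17 to TRAV21 was 11.1% with TRAJ48 and above, 3.27% with TRAJ38 to TRAJ47, 0.683% with TRAJ23 to TRAJ37, 0.128% with TRAJ12 to TRAJ22 and 0.0623% with TRAJ2 to TRAJ11, as means over libraries. With TRAV16 included, as in the J-proximal share above, these values were 11.2, 3.37, 0.863, 3.51 and 0.396% and did not fall at every step. The rise at TRAJ12 to TRAJ22 came with TRAJ12, where the J-proximal share was 12.3% ± 5.08 and that of TRAV17 to TRAV21 was 0. Within the 5′ segments the J-proximal share, TRAV16 included, was uneven. It was 14.9% ± 11.6 with TRAJ58, 18.3% ± 7.23 with TRAJ57, 8.98% ± 6.03 with TRAJ56 and 17.3% ± 8.26 with TRAJ53 (SD over 12 libraries). It was highest with TRAJ52, at 31.4% ± 18.0, and fell to 5.33% ± 4.28 with TRAJ50, 3.74% ± 3.89 with TRAJ49 and 1.65% ± 2.07 with TRAJ48. TRAJ48 and TRAJ49 thus had proximal shares near the 2.35% of TRAJ45, outside the rule, while TRAJ42 had 11.6% ± 6.05. These segment values are a description, and no test was run between segments.

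**Figure D3:**
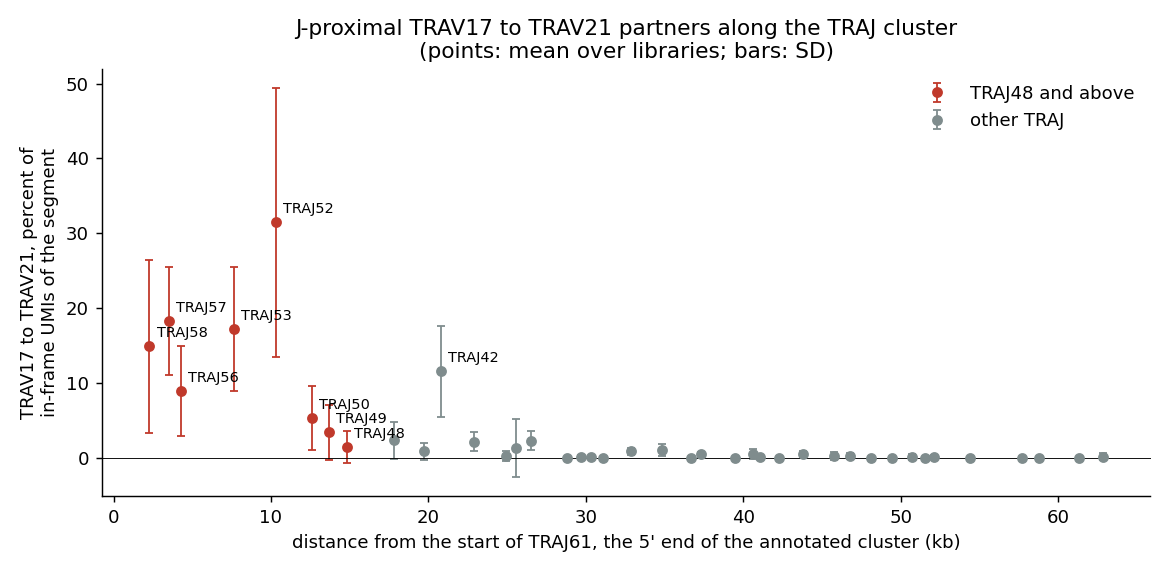
Share of TRAV17 to TRAV21 (%, y axis) among the in-frame UMIs of each TRAJ segment, ordered by distance along the joining cluster (kb, x axis), as means over libraries with SD. The value peaks at TRAJ52 (31.4%), is low at TRAJ49 and TRAJ48, and is close to 0 at most 3′ segments. Outside the rule TRAJ42 stands out (11.6%). TRAV16 is left out here, so TRAJ12 is at 0.

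Leading proximal joins recurred across mice. The TRAV17 join of TRAJ52 had 32 clonotypes and 252 UMIs in all 12 libraries, with 44, 38, 11 and 11 UMIs in wt, 14, 38, 24 and 9 in Il2° mice and 18, 3, 15 and 27 in Il15° mice. Its most abundant clonotype, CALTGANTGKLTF, had 118 of these UMIs and was found in every library. The TRAV19 join of TRAJ57 had 10 clonotypes and 99 UMIs in 11 libraries, of which 1 clonotype had 38 UMIs in 9 libraries.

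The mean annotated distance of the TRAV partner from the joining cluster depended on which rows were counted. It was 941 kb ± 41.4 for 5′ TRAJ and 964 kb ± 14.5 for the other in-frame UMIs (SD, n = 12), lower in 9 of 12 libraries (exact 2-sided sign-flip permutation p = 0.0547, adjusted 0.0684). Against TRAJ2 to TRAJ11, the 3′ end of the cluster, where the mean was 950 kb ± 12.9, the difference was -9.09 kb ± 34.9, lower in 8 of 12 libraries (exact permutation p = 0.381). When each clonotype was counted once, the difference to the other in-frame UMIs was -65.2 kb (exact permutation test, adjusted p = 0.000814), and with rows of at least 2 UMIs it was -8.50 kb (adjusted p = 0.611). With TRAJ50 and above as the 5′ set it was -85.2 kb (exact permutation test, adjusted p = 0.000977). Among families without a D or N copy alone, which include the J-proximal TRAV17, TRAV19 and TRAV21, it was -805 kb (exact permutation p = 0.000488). This setting leaves out TRAV4, and its value is not independent of the J-proximal share. TRAV17, TRAV19 and TRAV21 had 6.47, 2.66 and 1.88% of the 5′ TRAJ UMIs, but 0.277, 0.208 and 0.0894% of the other in-frame UMIs. The locus holds duplicated distal copies of many families, and TRAV4D-3, TRAV4D-4 and other distal copies carried much of the 5′ TRAJ set.

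By family, TRAV4 led the 5′ TRAJ UMIs in each genotype, with 41.3% ± 4.96 (mean and SD over 12 libraries). TRAV7 had 9.30% ± 1.87, TRAV6 8.78%, TRAV12 7.42% ± 2.57 and TRAV17 6.47% ± 2.30, and their order differed between the genotypes. TRAV12 had the highest mean of the 4 in wt (9.07%), TRAV7 in Il2° (10.6%) and TRAV6 in Il15° (8.98%). In the other in-frame UMIs TRAV4 had 31.5% ± 4.08 and TRAV17 0.277% ± 0.085. TRAV4 was thus higher by 9.77 percentage points and TRAV17 by 6.19, a 23.4-fold ratio, each in 12 of 12 libraries (exact sign-flip permutation p = 0.000488, adjusted 0.000868). TRAV19 was higher as well, with 2.66% ± 1.84 against 0.208%, a 12.8-fold ratio. Of the 16 families at 1% or more in either set 14 (87.5%) passed the adjusted threshold, 7 higher (43.8%) and 7 lower (43.8%), and 6 and 5 with each clonotype counted once. The others that were higher were TRAV5, TRAV21, TRAV13 and TRAV15, of which TRAV21 had 1.88% ± 1.32 against 0.0894%.

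The families lower with 5′ TRAJ were led by TRAV7, at 9.30% ± 1.87 against 20.5% ± 2.21, a difference of -11.2 percentage points in 12 of 12 libraries. TRAV10 had 1.24% ± 0.75 against 4.15% ± 0.96 and TRAV12 7.42% ± 2.57 against 9.91% ± 1.55. TRAV14, TRAV16, TRAV8 and TRAV3 were lower too, whereas TRAV6 (8.78% against 9.77%, adjusted p = 0.324 by exact permutation) and TRAV9 (1.55% against 0.972%, adjusted p = 0.393) did not pass. Over the UMIs of all libraries TRAV4 was the most frequent partner of 6 of the 8 segments, the exceptions being TRAJ52 (TRAV17 27.4%, TRAV4 20.5%) and TRAJ53 (TRAV7 27.0%, TRAV17 18.7%). It had 56.3% of TRAJ56 UMIs (398 of 707, in 59 clonotypes) and 37.7% of TRAJ49 UMIs (472 of 1252, in 66 clonotypes). TRAV12 had 9.19% of TRAJ56 and 14.7% of TRAJ49 UMIs, and TRAV6 6.22% and 15.5%. With TRAJ48 TRAV4 reached 64.4% and TRAV5 13.3%, and with TRAJ50 TRAV7 had 24.6%.

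**Figure D4:**
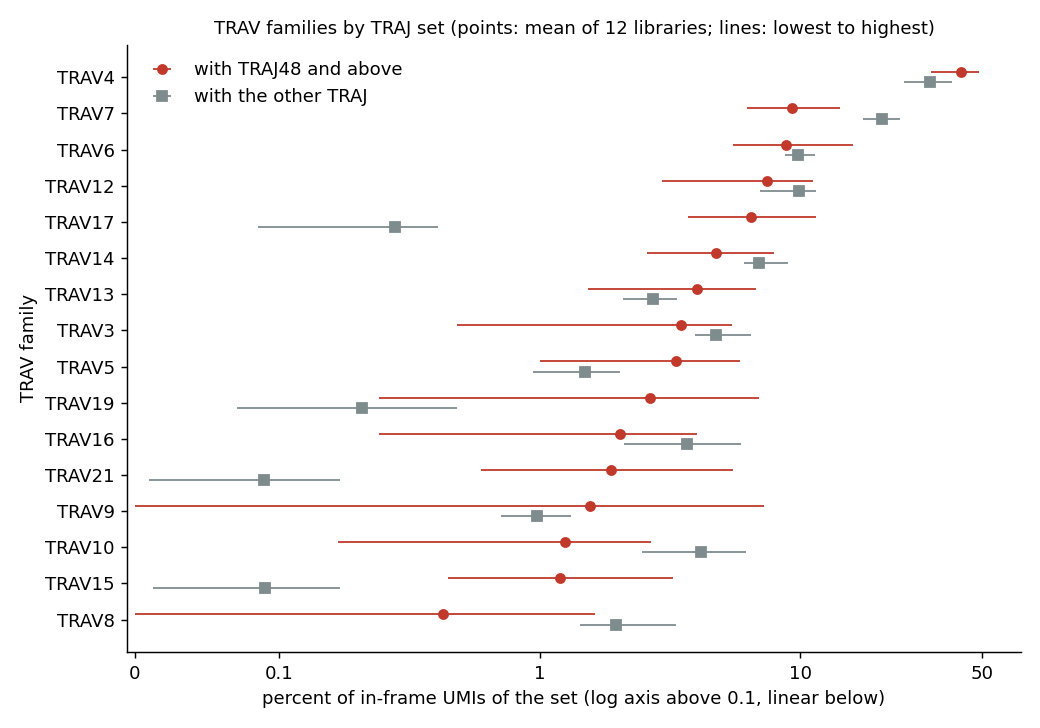
Mean share of each TRAV family (%) among 5′ TRAJ UMIs and among the other in-frame UMIs, with lines from the lowest to the highest of 12 libraries. TRAV4 (41.3% against 31.5%) and TRAV17 (6.47% against 0.277%) were higher with 5′ TRAJ and TRAV7 (9.30% against 20.5%) was lower.

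The CDR3 of 5′ TRAJ clonotypes was longer, and the rule sets the germline part of that length, so the values are a description and no p is given. The mean length was 13.45 amino acids ± 0.15 against 13.07 ± 0.02 in the other in-frame UMIs (SD, n = 12), longer in 12 of 12 libraries by 0.387 ± 0.163. The germline TRAJ bases of the CDR3, before any trimming, averaged 31.5 ± 0.25 against 28.8 ± 0.05, a difference of 2.74 bases or 0.913 amino acids, which is more than that of the CDR3 itself. The inserted nucleotides, the bases between the V end and the J start in the deposited tables, averaged 2.46 ± 0.18 against 2.04 ± 0.06, higher by 0.422 ± 0.189 in 12 of 12 libraries (exact 2-sided sign-flip permutation p = 0.000488, adjusted 0.000814). When each clonotype was counted once the difference in inserted nucleotides was 0.0941 (exact permutation test, adjusted p = 0.0879) and no longer passed.

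**Figure D5:**
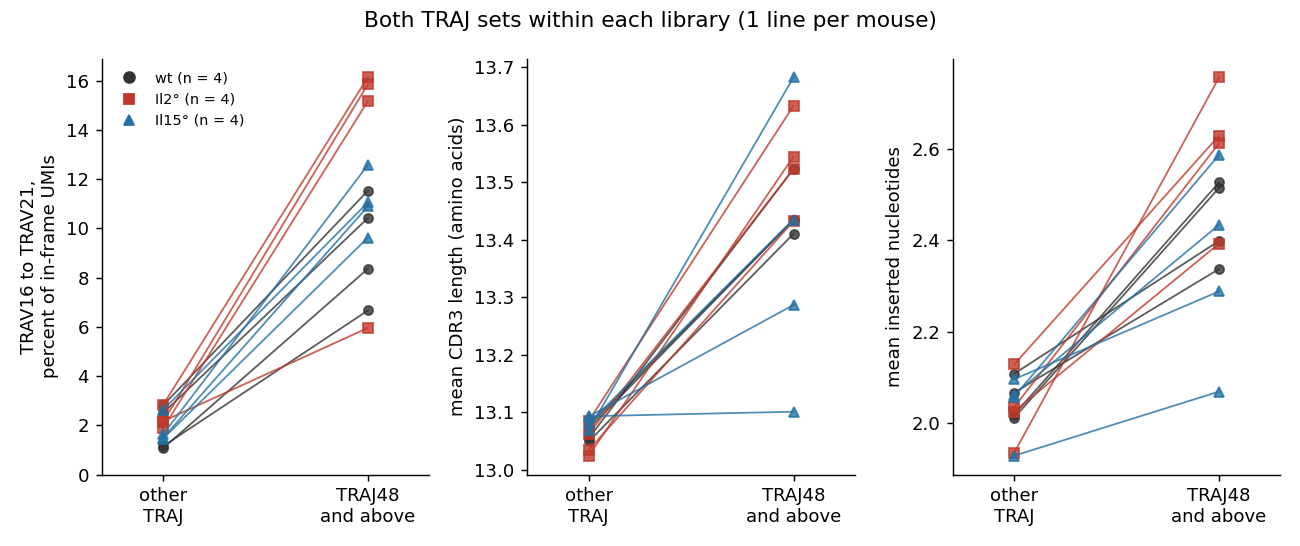
Values of 5′ TRAJ UMIs and of the other in-frame UMIs in the same library, joined by a line for each of the 12 libraries, for the J-proximal TRAV share (%), the mean CDR3 length (amino acids) and the mean inserted nucleotides. The lines rise in 12 of 12 libraries for each of these measures.

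The segments differed in how their junctions were made. TRAJ52 clonotypes had the fewest inserted nucleotides in each genotype, 1.49 on average over all libraries with 43.9% of UMIs without any, and lost the most germline TRAJ bases in each, 5.41 on average with 4.89% of UMIs untrimmed. TRAJ50 lost the fewest in each, 2.69 on average, and 25.2% of its UMIs kept the whole segment. TRAJ57 had 3.63 inserted nucleotides in wt, 3.54 in Il2° and 2.78 in Il15°, and TRAJ56 had 2.91, 3.27 and 2.82. The mean CDR3 length was 12.4, 12.7 and 12.4 amino acids with TRAJ48 and 12.7, 12.7 and 12.6 with TRAJ49, and with TRAJ53 it was 14.5, 14.5 and 14.6. These values are a description over the UMIs of a genotype.

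Among the 5′ TRAJ UMIs none of the measures of TRAV position and CDR3 passed a test between genotypes. The proximal share averaged 9.24% ± 2.16 in wt, 13.3% ± 4.90 in Il2° mice and 11.04% ± 1.21 in Il15° mice (SD, n = 4 each, exact Mann-Whitney p = 0.343 in each of the 3 comparisons). Without Il2° replicate 1, at 5.96%, the difference of Il2° against wt was 6.48 percentage points (exact Mann-Whitney test, adjusted p = 0.0857). With 3 mice against 4 this test cannot reach 0.05, so it decides nothing here. The mean TRAV distance was 959 kb ± 27.0, 917 kb ± 50.05 and 946 kb ± 42.7. The mean CDR3 length was 13.45 ± 0.05, 13.53 ± 0.08 and 13.38 ± 0.25 amino acids, and the inserted nucleotides averaged 2.44 ± 0.09, 2.60 ± 0.15 and 2.34 ± 0.22. The smallest p of these measures was 0.114, for the inserted nucleotides of Il15° against Il2° (exact Mann-Whitney test, adjusted 0.3). Hydrophobic residues (F, I, L, M, V and W) made up 5.79% ± 1.21, 6.08% ± 0.40 and 5.53% ± 0.93 of the central CDR3, which leaves out the first 3 and the last 4 residues.

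Glycine was the most used residue of the central CDR3, at 24.2%, followed by serine at 17.5% and asparagine at 11.6%, an order that held in each genotype. Alanine had 7.91% and threonine 7.20% over all libraries, but threonine had the higher mean of the pair in wt and was below tyrosine in Il15°. No residue passed the adjusted threshold in any comparison. None of the 20 residues (0%) was without overlap for Il2° against wt. For Il15° against wt 2 of 20 (10%) were, with histidine at 0.172% ± 0.068 against 0.458% ± 0.060 and threonine at 6.50% ± 0.94 against 7.95% ± 0.21 (SD, n = 4 each, exact Mann-Whitney p = 0.0286, adjusted 0.286). For Il15° against Il2° another 2 of 20 (10%) were, with phenylalanine at 2.30% ± 0.43 against 2.86% ± 0.11 and tyrosine at 7.34% ± 0.68 against 5.99% ± 0.31 (exact Mann-Whitney p = 0.0286, adjusted 0.229). The germline CDR3 part of TRAJ52, the segment lower in Il15°, encodes threonine. Those of other segments, such as TRAJ49, TRAJ56 and TRAJ58, encode it as well. The part of segment use in the threonine values was not tested.

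Clonotypes with 5′ TRAJ were mostly found in single mice. Of the 1297, 710 (54.7%) were in 1 library, as were 10133 of the 19318 other in-frame clonotypes (52.5%). In at least 6 libraries were 65 (5.01%, against 6.64%), and in all 12 were 4 (0.308%, against 0.880%). A 5′ TRAJ clonotype had 5.86 UMIs on average and another in-frame clonotype 9.47. Clonotypes found in all 4 mice of a genotype, termed public, numbered 33 in wt, 13 in Il2° mice and 17 in Il15° mice, with 4 public in all 3 genotypes, beside 585, 410, 386 and 170 of the other in-frame clonotypes. Of the 33, 25 were public in wt alone, although mutant mice could hold them too, beside 247 of the 585 others, and more UMIs were read in wt than in either mutant genotype. In wt, its 33 public clonotypes held 25.5% ± 4.69 of the 5′ TRAJ UMIs, while the 13 of Il2° held 18.6% ± 3.56 in Il2° mice and the 17 of Il15° held 24.1% ± 5.02 in Il15° mice (SD, n = 4 each). The public clonotypes among the other in-frame ones held 45.6% ± 3.06, 41.5% ± 2.92 and 39.8% ± 1.54 of those UMIs in the same 3 genotypes, given without a test. TRAJ52 and TRAJ57 had 8 public clonotypes each in any genotype, TRAJ50 and TRAJ58 7, TRAJ48, TRAJ49 and TRAJ56 6 and TRAJ53 2.

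The 4 clonotypes present in all 12 libraries each led their segment. TRAV4D-4 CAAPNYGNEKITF with TRAJ48 was the most abundant 5′ TRAJ clonotype, with 499 UMIs from 6 nucleotide versions. It made up 0.212, 0.238, 0.0376 and 0.271% of all UMIs in wt, 0.588, 0.247, 0.150 and 0.157% in Il2° mice and 0.150, 0.429, 0.446 and 0.221% in Il15° mice. The genotypes overlapped, with the lowest value in wt replicate 3 and the highest in Il2° replicate 1. TRAV4D-4 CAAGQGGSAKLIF with TRAJ57 had 123 UMIs and TRAV17 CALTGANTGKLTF with TRAJ52 118, in 5 nucleotide versions. The TRAJ52 clonotype had 18, 19, 7 and 4 UMIs in wt, 8, 13, 13 and 5 in Il2° mice and 7, 3, 12 and 9 in Il15° mice. Whether its change in Il15° mice differed from that of TRAJ52 as a whole was not tested.

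The fourth was TRAV4D-3 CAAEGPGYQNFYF with TRAJ49, with 105 UMIs from 7 nucleotide versions. It had 8, 19, 19 and 22 UMIs in wt, 1, 1, 3 and 1 in Il2° mice and 8, 7, 1 and 15 in Il15° mice. The mean shares were 0.0890% ± 0.0440 in wt, 0.0114% ± 0.0063 in Il2° mice and 0.0463% ± 0.0293 in Il15° mice (SD, n = 4 each), and all Il2° mice lay below all wt mice, while 8.19% of the 464 tested clonotypes did not overlap in this comparison. It was singled out for the smallest p of the 5′ TRAJ clonotypes and entered the comparison only through its wt counts, so these values are a description. Without the filter on low counts its adjusted p in edgeR was 0.307.

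The leading clonotypes of the remaining segments were less widely shared. TRAV7-6 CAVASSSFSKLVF with TRAJ50 had 73 UMIs in 7 libraries and was found in all 4 wt mice with 9, 19, 16 and 3 UMIs, in Il2° replicate 1 with 5 and in Il15° replicates 1 and 4 with 13 and 8. TRAV13D-1 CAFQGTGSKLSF with TRAJ58 had 71 UMIs in 10 libraries. TRAV4D-4 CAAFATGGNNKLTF with TRAJ56 had 34 UMIs in 8 libraries, and TRAV16D/DV11 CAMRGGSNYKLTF with TRAJ53 had 29 in 9 libraries.

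No 5′ TRAJ clonotype was called as different between genotypes. Of the 1297, 16 were tested for Il2° against wt, 16 for Il15° against wt and 6 for Il15° against Il2°, since the others did not pass the filter on low counts. Over all tested clonotypes edgeR called 0 of 464 (0%), 0 of 478 (0%) and 1 of 362 (0.276%), and at an unadjusted p of at most 0.05 it gave 2, 0 and 0 of the 5′ TRAJ clonotypes, beside 9.27%, 4.18% and 9.39% of all. DESeq2 called 8, 5 and 3 clonotypes, with none from 5′ TRAJ. The smallest p among them for Il15° against wt was that of TRAV4D-3 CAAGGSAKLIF with TRAJ57, with 6, 0, 3 and 2 UMIs in wt and 6, 8, 10 and 4 in Il15° (log2 fold change 1.82 ± 1.05, adjusted p = 0.982 in edgeR). For Il15° against Il2° it was that of TRAV4D-4 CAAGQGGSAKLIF with TRAJ57 (log2 fold change -1.35 ± 0.82, adjusted p = 0.609 in edgeR).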

How the data were processed

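TCRα repertoires of newly developed Treg from 12 individual mice were used, 4 of each genotype, with genotype and replicate number from the labels. The authors filtered reads by quality, built a consensus per UMI with pRESTO, aligned with MiXCR and wrote VDJtools tables (build mm10 per the labels, tool versions not given in the sources used here). The deposited count of a row is its number of UMIs, and the deposited fraction, that count over the library total, was not used. The deposited V end and J start positions gave the inserted nucleotides. Library totals were 7625 to 25980 UMIs, and a count of 0 allows up to 3 UMIs, 0.0115 to 0.0393% of a library, counting error only.

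Segments, pairs of TRAV family and TRAJ, and clonotypes were kept from 5 UMIs in 4 or more libraries on and tested with edgeR 4.0.16 (quasi-likelihood, TMM, Benjamini-Hochberg over the whole table, threshold 0.05) in R 4.3.3. DESeq2 1.42.0 and limma 3.58.1 (log2 of percent + 0.01) were alternatives, beside other scalings, no filter, the replicate block and leaving out each library. Genotypes were otherwise compared with exact Mann-Whitney tests, and 5′ TRAJ with other in-frame UMIs by exact sign-flip permutation within libraries (scipy 1.17.1), adjusted over 5 tests, that of the CDR3 length included. TRAV positions came from the GENCODE annotation of GRCm38 and covered 98.0% of UMIs. TRAV copies are near identical, and the authors' assignment between them was taken as given. Counts were simulated for Il15° against wt alone, with 3-fold changes and a fixed negative binomial dispersion of 0.05, which was not estimated from these data. On them the fit recovered 100% of 8 changed segments (40 tested), 96.43% of 56 pairs (326 tested, 1 false call) and 81.43% of 70 clonotypes (561 tested, 1 false call). These shares do not give the power of the tests on the deposited counts, whose spread between mice can be larger.

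Named were all 5′ TRAJ segments with the first clonotype of each, the clonotype and pair with the smallest p of each contrast where none passed, the 5 leading TRAV families with the 3 largest differences each way, and residues without overlap. Other names, counts by family within TRAJ52 and the joins of TRAV17 and TRAV19 among them, were chosen after their values were seen. The members and lists were chosen with earlier results of these data known.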

Additional observations from a re-analysis of the deposited data

Results flagged for a closer look

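In 99 sets of 4 libraries (33 measures in 3 genotypes), 8 had a library that lay far from the other 3 of its genotype by Dixon's criterion at 95%, which chance alone gives in about 1 in 20 sets. The share of 5′ TRAJ UMIs was 2.82% in Il15° replicate 1 and 3.74 to 3.87% in the others. The J-proximal TRAV share of 5′ TRAJ UMIs was 5.96% in Il2° replicate 1 and 15.2 to 16.1% in the others. TRAJ49 was 0.338% of UMIs in Il2° replicate 2 and 0.511 to 0.527% in the others. TRAV13 joined to TRAJ52 was 0.138% in wt replicate 2 against 0.0404 to 0.0563%, and 0.00538% (1 UMI) in Il15° replicate 4 against 0. TRAV17 joined to TRAJ53 was 0.0945% in Il15° replicate 2 against 0.0215 to 0.0333%. TRAV7-6 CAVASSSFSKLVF with TRAJ50 was 0.0377% in Il2° replicate 1 against 0, and TRAV16D/DV11 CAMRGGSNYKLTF with TRAJ53 was 0.0483% in Il2° replicate 2 against 0 to 0.00650%.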

How the results depend on the processing

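Of 175 recomputations of the main results with another setting than a left-out library, 148 kept their direction and their side of the threshold or, for a count, stayed within 1.5 times, and the cause of the other changes was not tested. The TRAV distance of 5′ TRAJ against other in-frame UMIs passed with each clonotype counted once (-65.2 kb) and with TRAJ50 and above (-85.2 kb). It passed as well with unduplicated families alone (-805 kb), which leave out TRAV4. With rows of at least 2 UMIs it was -8.50 kb, short of the threshold. With each clonotype counted once 6 TRAV families were higher and 5 lower: TRAV3, TRAV14 and TRAV16 no longer passed (adjusted p = 0.05005, 0.0772 and 0.337 by exact permutation), TRAV15 was under 1% and not tested, and TRAV6 passed as lower (0.0234). Against TRAJ2 to TRAJ11 it was -48.1 kb and -69.3 kb in the first and second of these settings, which passed, and 6.17 kb with rows of at least 2 UMIs, and unduplicated families gave no value. The inserted nucleotides no longer passed with each clonotype counted once (0.0941). Differences between genotypes that changed sign were all short of the threshold before and after: Il15° against Il2° for the share (0.135 points with rows of at least 2 UMIs), the proximal share (0.618 points with TRAJ50 and above) and the distance (-9.96 kb, unduplicated families), Il2° against wt for the distance (2.42 kb, unduplicated families), and Il15° against wt for the CDR3 length (0.0643, TRAJ50 and above) and the hydrophobic share (0.105 points with each clonotype once, 0.135 with TRAJ50 and above, 0.344 with A, C and Y added).

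The count of 5′ TRAJ segments called was 1 (TRAJ49) for Il2° against wt without TMM, 0 for Il15° against wt by the exact Mann-Whitney test, and 0 for Il15° against Il2° by limma, without a filter, with the replicate block and by the Mann-Whitney test. The count of 5′ TRAJ pairs was 1 by DESeq2 in each comparison, 2 by limma for Il15° against wt, and 1 by limma and without TMM for Il15° against Il2°. Any call of the TRAV13 join of TRAJ52 against Il15° is a description, as stated above. Replicate numbers belong to different mice and gave no pairing: same-numbered libraries had a mean correlation of deviations of -0.0711 over segments (-0.492 to 0.405). With the block the adjusted p of TRAJ52 in edgeR was 0.0477 against wt and 0.0698 against Il2°, and no other call on the named segments changed.

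Leaving out 1 library gave ranges of -29.7 to -18.3 kb for the distance against other UMIs (passing without Il2° replicate 1 or Il15° replicate 4), -0.397 to 0.0873 points for the share of Il15° against Il2°, -32.7 to 1.71 kb for the distance, -0.176 to 0.0174 for the CDR3 length and -0.675 to 0.294 points for the hydrophobic share of Il15° against wt, and -0.123 to 0.846 points for the hydrophobic share of Il2° against wt. Against wt the difference in the share of 5′ TRAJ UMIs ran from -0.548 to -0.0626 points for Il2°. For Il15° it ran from -0.564 to -0.216 points, the latter without Il15° replicate 1. Leaving out 1 library gave 0 to 1 called segments in each comparison, and 0 to 1 pairs for Il2° and 0 to 2 for Il15° against wt. The log2 fold change of TRAJ56 for Il2° against wt ran from -0.00685 to 0.33. Depth limits single clonotypes: 16, 16 and 6 of the 1297 could be tested.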

Other observations

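Out-of-frame rows of the same 8 segments, which encode no TCRα chain and entered no comparison of shares, held 319 UMIs. As a percentage of all UMIs of these segments they were 4.37, 1.88, 1.97 and 1.03% in wt, 2.20, 7.94, 7.50 and 4.28% in Il2° and 4.86, 4.04, 5.24 and 4.79% in Il15°. The genotypes overlapped, and no test was run.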
